A study of Mus musculus with 6 samples.

Results

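The enzymes of the citric acid cycle were followed in whole inguinal mammary glands that lacked Mmp14 in their stroma. The set held 9 genes: citrate synthase (Cs), the 3 subunit genes of NAD-dependent isocitrate dehydrogenase (Idh3a, Idh3b and Idh3g), the E1 and E2 components of the 2-oxoglutarate dehydrogenase complex (Ogdh and Dlst), the alpha subunit of succinyl-CoA synthetase (Suclg1), fumarase (Fh1) and mitochondrial malate dehydrogenase (Mdh2). They were chosen by symbol, and each of the 9 had exactly 1 probe set with a single gene symbol, among 22180 genes measured in all. The knockout glands carried the genotype Dermo1Cre/Mt1-mmp(fl/fl), in which a Cre recombinase from the mesenchymal Dermo1 locus (now Twist2) acts on floxed Mt1-mmp (now Mmp14), a membrane-anchored matrix protease. The comparison glands were Mt1-mmp(+/+) littermates. Both groups were of the C57BL/6J strain, 4 weeks old and given no treatment that the labels name, with 3 arrays each, called biological replicates 1 to 3 of each genotype. The labels name no mice with Cre alone, so Cre and the loss of Mmp14 cannot be told apart, and they do not say whether a sample pooled animals.

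The citric acid cycle runs in the mitochondrial matrix and burns the acetyl groups of acetyl-CoA, which comes from pyruvate and from fatty acid oxidation. It hands electrons to the respiratory chain as NADH and as reduced flavin, and its intermediates also leave the mitochondrion as starting points for fat, glucose and amino acid synthesis. Adipose tissue uses it in contrasting ways: white adipocytes export citrate for lipid synthesis, whereas brown and beige adipocytes hold dense mitochondria and oxidise fuel to make heat.

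All values are log2 signals as deposited, and a difference is stromal knockout minus wild type on that scale. Mmp14 itself read 8.55 to 8.75 in knockout arrays and 10.55 to 11.18 in wild-type arrays, a difference of -2.25 ± 0.17 (SE; limma adjusted p = 0.000454). Arrays correlated at 0.990 to 0.992 within a group and at 0.975 to 0.983 between groups (Pearson, across genes, which are not independent replicates). Wild type 1 stood apart from the other wild-type arrays: it was lowest for the cycle members and for thermogenic adipocyte markers and high for skeletal muscle. The mean over 18 skeletal muscle genes was 3.23 to 3.33 in knockout arrays, against 5.46 in wild type 1, 3.67 in wild type 2 and 3.33 in wild type 3. Results are therefore also given without it.

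Every one of the 9 cycle genes was higher in the knockout. All 9 passed the test (limma over all genes, Benjamini-Hochberg adjusted p 0.00493 to 0.0425), by 0.59 to 1.06 log2 units, which is 1.50-fold to 2.08-fold. Among all 22180 genes, 12.2% were called, 5.05% as higher (1121 genes) and 7.2% as lower (1596 genes). With arrays centred on their medians that split became 3155 higher and 1178 lower, and all 9 members passed there too. All 3 knockout arrays lay above all 3 wild-type arrays for each of the 9 genes, an arrangement found in 17.2% of all genes. The median difference of the members was 0.74, beside a median of 0.03 over all genes. Only 0.825% of genes had a larger difference than Idh3a, the member that moved most, and 5.14% had a larger one than Idh3g, the member that moved least. RNA came from whole glands, so a greater number of mitochondria-rich cells and more transcript per cell cannot be told apart.

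**Figure D1:**
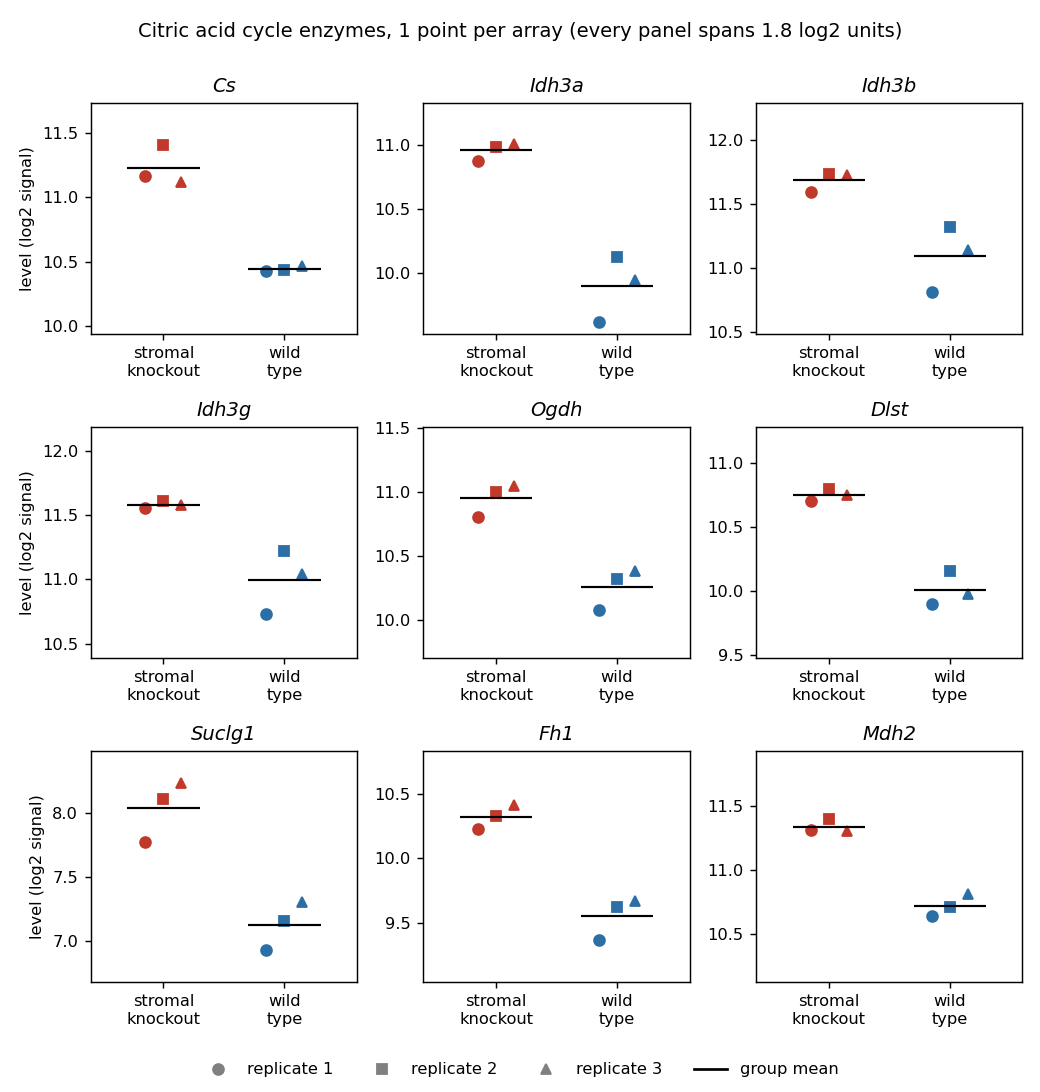
Level of each of the 9 cycle genes (vertical axis, log2 signal, every panel spanning the same range) in the 3 stromal knockout arrays (red, left) and the 3 wild-type arrays (blue, right), with marker shape giving the replicate number and a line at the group mean. In each panel the knockout points lie above all wild-type points, and wild type 1 is the lowest wild-type point.

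Cs encodes citrate synthase, which joins acetyl-CoA to oxaloacetate and so opens the cycle. It read 11.17, 11.41 and 11.12 in knockout arrays 1, 2 and 3, against 10.42, 10.44 and 10.46 in wild-type arrays 1, 2 and 3. The knockout arrays spread more widely (SD 0.15) than the wild-type arrays (SD 0.02), and all lay above them. The difference was 0.79 ± 0.12 (95% interval 0.51 to 1.07; 1.73-fold; adjusted p = 0.00653).

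NAD-dependent isocitrate dehydrogenase makes 2-oxoglutarate from isocitrate and is a main control point of the cycle. Idh3a encodes its catalytic alpha subunit, while Idh3b and Idh3g encode the beta and gamma subunits. Idh3a read 10.88, 10.99 and 11.01 in knockout arrays, against 9.62, 10.13 and 9.95 in wild-type arrays. This was the widest separation among the members, 1.06 ± 0.15 (interval 0.71 to 1.41; 2.08-fold; adjusted p = 0.00493), and it passed without any 1 array (largest adjusted p 0.0237). Idh3b read 11.59, 11.73 and 11.72 in knockout arrays, against 10.81, 11.32 and 11.14 in wild-type arrays, a difference of 0.59 ± 0.15 (1.51-fold; adjusted p = 0.0425). Idh3g read 11.55, 11.61 and 11.58 in knockout arrays, against 10.73, 11.22 and 11.05 in wild-type arrays, a difference of 0.59 ± 0.15 (1.50-fold; adjusted p = 0.0384). The wild-type arrays differed among themselves far more than the knockout arrays did for Idh3g (SD 0.03 in the knockout, 0.25 in wild type), with wild type 1 lowest. The calls of Idh3b and Idh3g were lost without any 1 array other than wild type 2 (adjusted p 0.0786 to 0.124 and 0.0830 to 0.112). Without wild type 1 their differences were both 0.45.

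Within-array log2 ratios of the 3 subunit genes were also compared. Since each gene has its own probe set, the sign of a ratio carries no meaning, and only its change between groups can be read. Idh3a minus Idh3b was -0.71, -0.74 and -0.71 in knockout arrays, against -1.19, -1.19 and -1.19 in wild-type arrays. The wild-type ratios agree within 0.01 (SD 0.0029), although each gene's level had an SD of 0.26 over the same arrays. The difference was 0.47 ± 0.01 (SE), and 0.46 to 0.48 without any 1 array. Standard errors of ratios come only from the spread of the ratios in each group, not from limma. They are not comparable with those of single genes. Idh3a minus Idh3g was -0.68, -0.62 and -0.57 in knockout arrays, against -1.11, -1.09 and -1.10 in wild-type arrays, a difference of 0.47 ± 0.03. In these arrays the difference of Idh3a exceeded that of either partner by 0.47 log2 units. Idh3b minus Idh3g was 0.04, 0.12 and 0.14 in knockout arrays and 0.08, 0.10 and 0.10 in wild-type arrays, and the groups overlapped (difference 0.01 ± 0.03). The exact two-sided permutation p was 0.1 for the first 2 pairs, the smallest that 3 against 3 arrays can give, and 0.9 for the last; adjusted over the 4 pairs tested in all, these were 0.2 and 0.9, so no pair could pass the threshold.

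**Figure D2:**
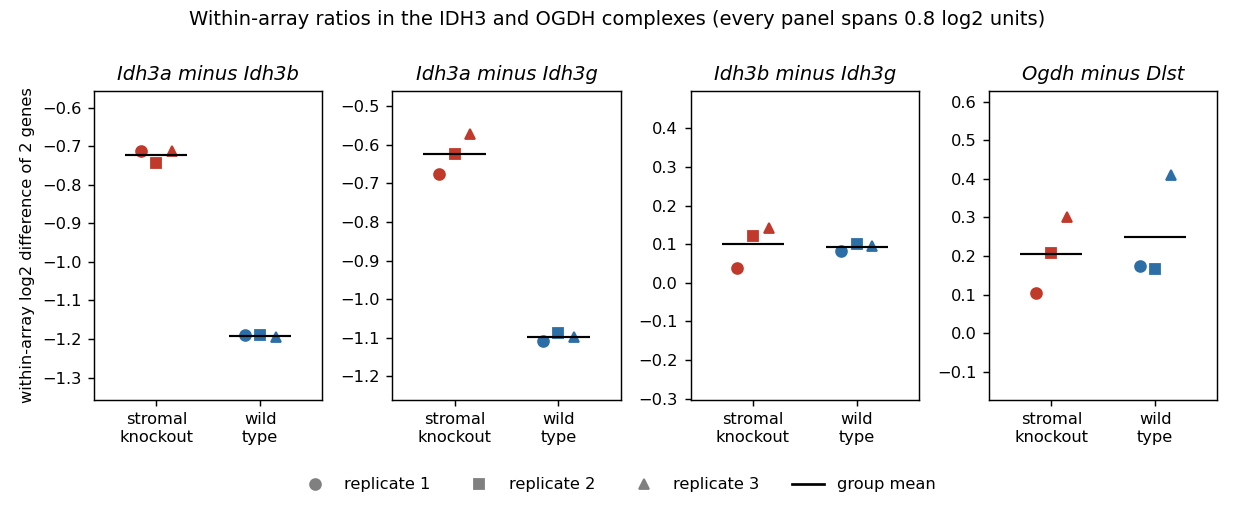
Within-array log2 difference of a pair of genes (vertical axis, every panel spanning the same range) for 3 pairs of isocitrate dehydrogenase subunits and for Ogdh minus Dlst, in stromal knockout (red, left) and wild-type (blue, right) arrays, with a line at the group mean. The pairs with Idh3a separate at 0.47 log2 units between groups, and the other pairs overlap.

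The promoters of Idh3b and Idh3g are shown, each from 250 bases before to 50 bases after the annotated start (RefSeq, GRCm38.p6). Their part in the values of these genes was not tested. Promoter windows were matched for 8 of the 9 members by symbol; Idh3a had no entry. Capitals mark CCGGAAG, the core bound by ETS-family factors such as GABP, in either orientation. In Idh3b (chr2:130284402-130284701, minus strand) the match starts at position -5, counted from 0 at the annotated first base, and in Idh3g (chrX:73786848-73787147, minus strand) it starts at -104.
Idh3b: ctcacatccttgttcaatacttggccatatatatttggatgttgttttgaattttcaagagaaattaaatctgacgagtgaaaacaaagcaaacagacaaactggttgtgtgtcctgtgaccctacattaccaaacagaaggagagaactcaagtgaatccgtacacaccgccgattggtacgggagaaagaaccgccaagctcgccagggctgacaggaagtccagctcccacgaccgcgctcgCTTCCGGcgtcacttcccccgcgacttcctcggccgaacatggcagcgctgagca
Idh3g: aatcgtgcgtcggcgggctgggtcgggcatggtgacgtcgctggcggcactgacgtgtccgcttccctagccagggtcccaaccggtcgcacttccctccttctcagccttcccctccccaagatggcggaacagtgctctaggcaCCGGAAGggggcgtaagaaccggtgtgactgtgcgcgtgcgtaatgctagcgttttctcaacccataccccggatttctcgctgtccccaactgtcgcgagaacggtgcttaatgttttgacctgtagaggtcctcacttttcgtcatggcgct
The motif was found in 3 of the 8 members, Dlst being the third, and in 9.93% of all genes in the promoter table (8.86% of all windows).

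The 2-oxoglutarate dehydrogenase complex converts 2-oxoglutarate to succinyl-CoA. Ogdh encodes its thiamine-dependent E1 component and Dlst its E2 component, the succinyltransferase that carries lipoate. Ogdh read 10.81, 11.00 and 11.05 in knockout arrays, against 10.08, 10.32 and 10.38 in wild-type arrays, a difference of 0.69 ± 0.13 (interval 0.38 to 1.00; 1.61-fold; adjusted p = 0.0151). The groups did not overlap, but the call was lost without knockout 2 (0.67; adjusted p = 0.0594) or wild type 1 (0.60; adjusted p = 0.0532). Dlst read 10.70, 10.79 and 10.75 in knockout arrays, against 9.90, 10.16 and 9.97 in wild-type arrays, a difference of 0.74 ± 0.12 (interval 0.46 to 1.01; 1.67-fold; adjusted p = 0.00757). Ogdh minus Dlst did not separate the groups, at 0.10, 0.21 and 0.30 in knockout arrays and 0.18, 0.17 and 0.41 in wild-type arrays (difference -0.05 ± 0.10; exact permutation p = 0.7, 0.9 adjusted over the 4 pairs).

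The promoter windows of Dlst and of 1 of the 6 annotated Ogdh starts are shown for comparison with those of the isocitrate dehydrogenase subunits. In Dlst (chr12:85110583-85110882, plus strand) capitals mark CCGGAAG, which starts at position 1 on the opposite strand. In Ogdh (chr11:6292308-6292607, plus strand) capitals mark GCGCANGCG, a core bound by nuclear respiratory factor 1, which starts at -15.
Dlst: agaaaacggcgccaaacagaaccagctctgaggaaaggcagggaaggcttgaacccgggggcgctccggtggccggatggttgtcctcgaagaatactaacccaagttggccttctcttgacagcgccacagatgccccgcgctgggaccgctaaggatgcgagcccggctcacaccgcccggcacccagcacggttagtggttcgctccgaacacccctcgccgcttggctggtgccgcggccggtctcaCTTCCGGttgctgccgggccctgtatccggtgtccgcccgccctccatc
Ogdh: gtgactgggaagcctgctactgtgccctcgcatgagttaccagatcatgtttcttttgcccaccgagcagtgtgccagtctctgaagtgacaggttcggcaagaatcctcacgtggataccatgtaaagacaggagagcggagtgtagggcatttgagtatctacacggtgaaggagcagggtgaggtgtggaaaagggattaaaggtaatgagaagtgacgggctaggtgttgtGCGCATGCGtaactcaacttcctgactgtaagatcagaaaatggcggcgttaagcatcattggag
GCGCANGCG was found in Ogdh alone among the 8 members and in 7.03% of all genes. AAGGTCA, the half-site of estrogen-related receptors, was found in Ogdh alone, at another start, and in 5.38% of all genes. Its extended form TNAAGGTCA, which contains it, was found in 0 of the 8 members and in 1.43% of all genes. These are matches of letters in a 300-base window on either strand, and say nothing of binding.

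Suclg1 encodes the alpha subunit shared by the ATP-forming and GTP-forming succinyl-CoA synthetases. It read 7.77, 8.11 and 8.23 in knockout arrays, against 6.93, 7.15 and 7.30 in wild-type arrays, a difference of 0.91 ± 0.16 (interval 0.53 to 1.28; 1.88-fold; adjusted p = 0.0109). Its knockout arrays had the widest spread of all members (SD 0.24), with knockout 1 the lowest, and still lay above wild type throughout. Fh1 encodes fumarase, which hydrates fumarate to malate. It read 10.23, 10.33 and 10.42 in knockout arrays, against 9.37, 9.62 and 9.67 in wild-type arrays, a difference of 0.77 ± 0.13 (interval 0.47 to 1.07; 1.71-fold; adjusted p = 0.00882). Mdh2, whose product regenerates oxaloacetate from malate, read 11.31, 11.39 and 11.30 in knockout arrays, against 10.64, 10.71 and 10.81 in wild-type arrays. The Mdh2 difference was 0.62 ± 0.11 (interval 0.36 to 0.87; 1.53-fold; adjusted p = 0.0112). The calls of Suclg1, Fh1 and Mdh2 held without any 1 array, with Mdh2 nearest to the threshold (largest adjusted p 0.0498).

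Across the whole set, arrays of a group moved in common. Knockout 1 was the lowest knockout array for 7 of 9 members, on average 0.09 below the knockout mean. Wild type 1 was the lowest wild-type array for 9 of 9 members and on average 0.18 below the wild-type mean, while wild type 2 was highest for 4 and wild type 3 for 5. Without wild type 1, which had the highest muscle signal and the lowest cycle genes, 6 of the 9 members passed and their median difference was 0.68. Without knockout 2, 6 passed as well, and with any other array left out 7 to 9 did. In each of these repeats the 3 members that could drop out were Idh3b, Idh3g and Ogdh.

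The cycle enzymes outside the set moved the same way. Of 8 measured genes, 6 rose and 0 fell, beside 5.05% of all genes called higher and 7.2% called lower (limma). At an unadjusted limma p under 0.05, 8 were higher and 0 lower. Shares over all genes at an unadjusted p are not given here. The median difference of the 8 was 0.65. All 8 had their knockout arrays above their wild-type arrays, as did 17.2% of all genes. Idh2, the NADP-dependent mitochondrial isocitrate dehydrogenase, read 9.56, 9.79 and 9.61 in knockout arrays, against 8.73, 8.86 and 8.83 in wild-type arrays (0.85 ± 0.12; adjusted p = 0.00443). Of the succinate dehydrogenase subunits, Sdha rose by 0.60 ± 0.11, Sdhb by 0.67 ± 0.13 and Sdhd by 0.70 ± 0.11, while Sdhc differed by 0.64 ± 0.17 at the threshold (adjusted p = 0.0504). Sdhc passed without wild type 2 (0.0365) and with no other single array left out (0.0780 to 0.140), with a difference of 0.50 without wild type 1. Suclg2, the GTP-specific beta subunit of succinyl-CoA synthetase, rose by 0.58 ± 0.11 (adjusted p = 0.0140), whereas Sucla2, the ATP-specific one, differed by 0.68 ± 0.20 and missed (adjusted p = 0.0700). Both beta subunits therefore lay between 0.58 and 0.68, below the 0.91 of their shared partner Suclg1, a contrast that was not tested. Dld, the E3 subunit that the 2-oxoglutarate and pyruvate dehydrogenase complexes share, rose by 0.62 ± 0.13 (adjusted p = 0.0230), a call lost without any 1 array other than wild type 2 (0.0570 to 0.0743). Without knockout 2, 2 of the 8 genes passed, and without wild type 1, 3 passed (Idh2 and Sdhd held without each array). The call of Suclg2 was also lost without wild type 3 (adjusted p = 0.0518) and with the mean of its 2 probe sets (0.29; adjusted p = 0.256).

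Of 3 cytosolic enzymes that catalyse like reactions, 1 rose and 0 fell, beside 5.05% of all genes called higher. At an unadjusted limma p under 0.05, 2 were higher and 0 lower. Mdh1, cytosolic malate dehydrogenase, rose by 0.51 ± 0.12 (adjusted p = 0.0337), a call lost without any 1 array other than wild type 2 (adjusted p 0.0661 to 0.111). Aco1, the cytosolic aconitase that doubles as an iron-regulatory protein, differed by 0.39 ± 0.11 and did not pass (adjusted p = 0.0598), although it did when the variance was allowed to follow intensity (Aco1 adjusted p = 0.00792). Idh1, cytosolic NADP-dependent isocitrate dehydrogenase, read 10.18, 10.29 and 10.21 in knockout arrays and 10.33, 10.18 and 10.35 in wild-type arrays, and the groups overlapped. Its difference was -0.06 ± 0.11 (interval -0.32 to 0.20; adjusted p = 0.775), and +0.12 with arrays centred on their medians, a scaling that put the median difference of all genes at 0.22.

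**Figure D3:**
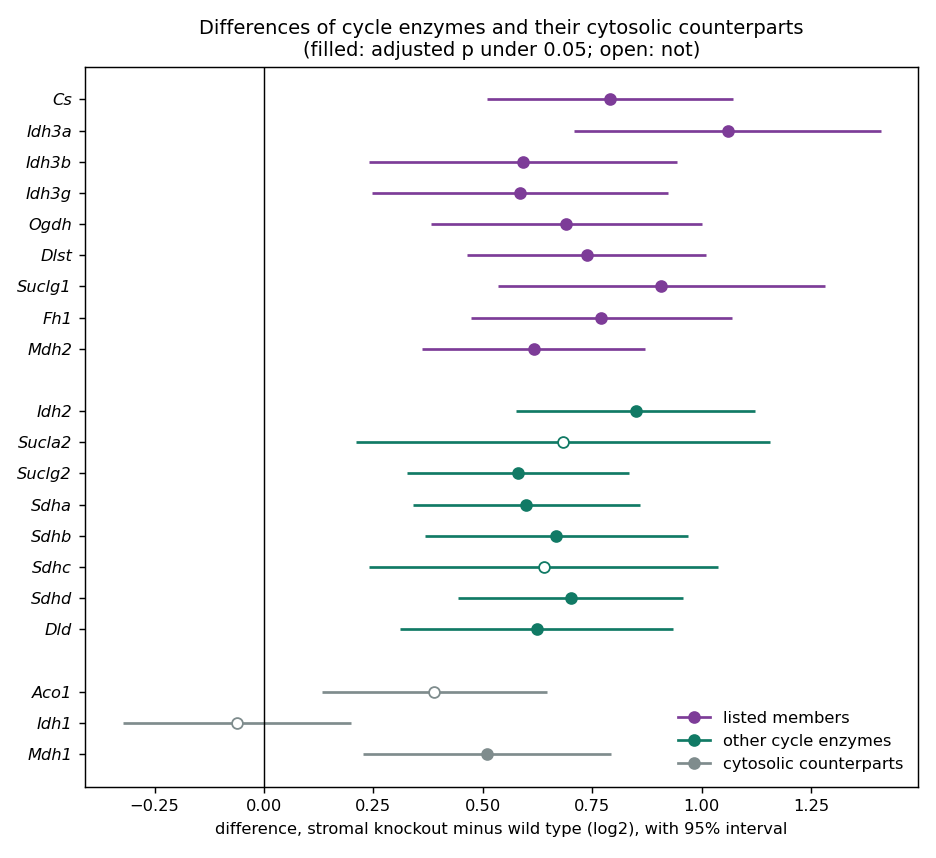
Difference between stromal knockout and wild type (horizontal axis, log2, knockout minus wild type) with its 95% interval from limma for the 9 members (purple), 8 other cycle enzymes (green) and 3 cytosolic counterparts (grey), filled where the adjusted p is under 0.05. The intervals of all mitochondrial cycle enzymes lie above 0, and that of Idh1 spans 0.

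Genes that serve the cycle passed the test only in part, though all 13 differences in the first list were positive. Of 13 assembly factors, paralogues and modifiers, with a median of 0.29, 0 were lower at an unadjusted limma p under 0.05. At the adjusted threshold 5 rose and 0 fell, beside 5.05% of all genes called higher. They were Sirt3, the main mitochondrial deacetylase (0.94 ± 0.15), Dhtkd1, an E1 paralogue of Ogdh that acts on 2-oxoadipate (0.83 ± 0.13), Mrps36, which tethers the E3 subunit to the 2-oxoglutarate dehydrogenase complex (0.63 ± 0.16), the lipoate synthase Lias (0.58 ± 0.13) and the succinate dehydrogenase assembly factor Sdhaf1 (0.49 ± 0.10). Sirt3 and Dhtkd1 held without each array. Mrps36 lost its call whichever array was left out (adjusted p 0.0581 to 0.134), Sdhaf1 without any 1 other than wild type 2 (0.0567 to 0.0705) and with the mean of its 2 probe sets (0.36; 0.0734), and Lias without knockout 2 or 3 or wild type 1 or 2 (0.0690 to 0.101). The paralogues Ogdhl and Csl lay under 2.68, the 33rd percentile of gene levels, in both groups, where a change cannot be read.

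Pyruvate enters the cycle through its mitochondrial carrier and the pyruvate dehydrogenase complex. Of 5 measured entry genes, 2 rose, beside 5.05% of all genes called higher. They were Pdhx, which anchors E3 in the complex (0.63 ± 0.16, limma adjusted p = 0.0411), and Dlat, the E2 component (0.50 ± 0.13, adjusted p = 0.0440). Pdhx lost its call without any 1 array (adjusted p 0.0549 to 0.116) and Dlat without any 1 other than knockout 1 (0.0793 to 0.133). Pdk4, the kinase that switches the complex off, rose by 2.36 ± 0.28 (adjusted p = 0.00245), so the inhibitor differed by more log2 units than any cycle enzyme tested.

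Reactions that fill or drain the cycle gave 9 rises and 1 fall among 17 measured genes (median 0.45). Over all genes, 5.05% were called higher and 7.2% lower. At an unadjusted p under 0.05 (limma), 9 were higher and 4 lower. Of the propionyl-CoA branch, which feeds succinyl-CoA, the carboxylase genes Pccb and Pcca rose by 0.87 ± 0.12 and 0.64 ± 0.11 and the mutase Mmut by 0.56 ± 0.13. Pck1, the cytosolic phosphoenolpyruvate carboxykinase of glyceroneogenesis, rose by 1.30 ± 0.24, the mitochondrial malic enzyme Me3 by 0.92 ± 0.23 and glutamate dehydrogenase (Glud1) by 0.76 ± 0.15. With the mean of its 2 probe sets, Me3 rose by 0.64 (limma adjusted p = 0.0182). The 1 fall was Got1, the cytosolic aspartate aminotransferase (-0.46 ± 0.12; adjusted p = 0.0413), named after its value was seen. With 1 array fewer, 3 to 5 of the genes rose and 0 to 2 fell. None fell, Got1 included, without knockout 2 or without any 1 of the wild-type arrays. Pccb, Pcca and Pck1 held without each array; Mmut lost its call without any 1 other than wild type 2 (adjusted p 0.0520 to 0.0847), Me3 without knockout 1 or 2 or wild type 1 or 3 (0.101 to 0.121) and Glud1 without knockout 1 or 2 or wild type 1 or 2 (0.0528 to 0.0614).

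Of 8 mitochondrial carriers of cycle intermediates and related amino acids, Slc25a11, the 2-oxoglutarate and malate exchanger, rose (0.62 ± 0.12; adjusted p = 0.0131), and Slc25a13, an aspartate and glutamate exchanger, fell (-1.29 ± 0.13; adjusted p = 0.00107). Both held without each array. The 1 rise and 1 fall among 8 carriers stand beside 5.05% of all genes called higher and 7.2% called lower. With limma at an unadjusted p under 0.05, 2 carriers were higher and 2 lower. Slc25a1, the citrate carrier, read 11.43 in the knockout and 11.47 in wild type on average (-0.05 ± 0.12; adjusted p = 0.844).

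Among 11 transcriptional regulators of mitochondrial genes, 3 rose and 1 fell, beside 5.05% of all genes called higher and 7.2% called lower. At an unadjusted limma p under 0.05, 5 were higher and 1 lower. The coactivators Ppargc1a and Ppargc1b rose by 1.50 ± 0.19 and 1.45 ± 0.18, and the estrogen-related receptor Esrrg by 0.93 ± 0.17, all holding without each array. Esrrb fell by 1.15 ± 0.26, a call lost without knockout 2, knockout 3 or wild type 2 (adjusted p 0.0580 to 0.0870). Esrra, the receptor of this family best known for control of cycle genes, differed by 0.43 ± 0.18 (adjusted p = 0.179), and Nrf1 by -0.22 ± 0.12 (adjusted p = 0.288).

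As a measure of mitochondrial genes with other roles, 17 import, chaperone, channel and membrane-shaping genes were read. At an unadjusted limma p under 0.05, 12 were higher and 0 lower, with a median difference of 0.44 over the list. At the adjusted threshold 8 rose and 0 fell, beside 5.05% of all genes called higher, and 2 to 6 rose with 1 array fewer. The leading ones were Timm50 of the inner membrane translocase (0.78 ± 0.11), the fusion proteins Mfn2 (0.70 ± 0.12) and Opa1 (0.63 ± 0.12), cytochrome c (Cycs, 0.66 ± 0.16), the cristae organiser Immt (0.56 ± 0.12) and the chaperonin Hspd1 (0.56 ± 0.13). Timm50 and Mfn2 held without each array, whereas Cycs, Immt and Hspd1 lost their calls without any 1 other than wild type 2 (adjusted p 0.0532 to 0.108) and Opa1 without knockout 1 or 2 or wild type 1 (0.0526 to 0.0570). The median of the cycle members was 0.74; the difference between these lists was not tested.

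**Figure D4:**
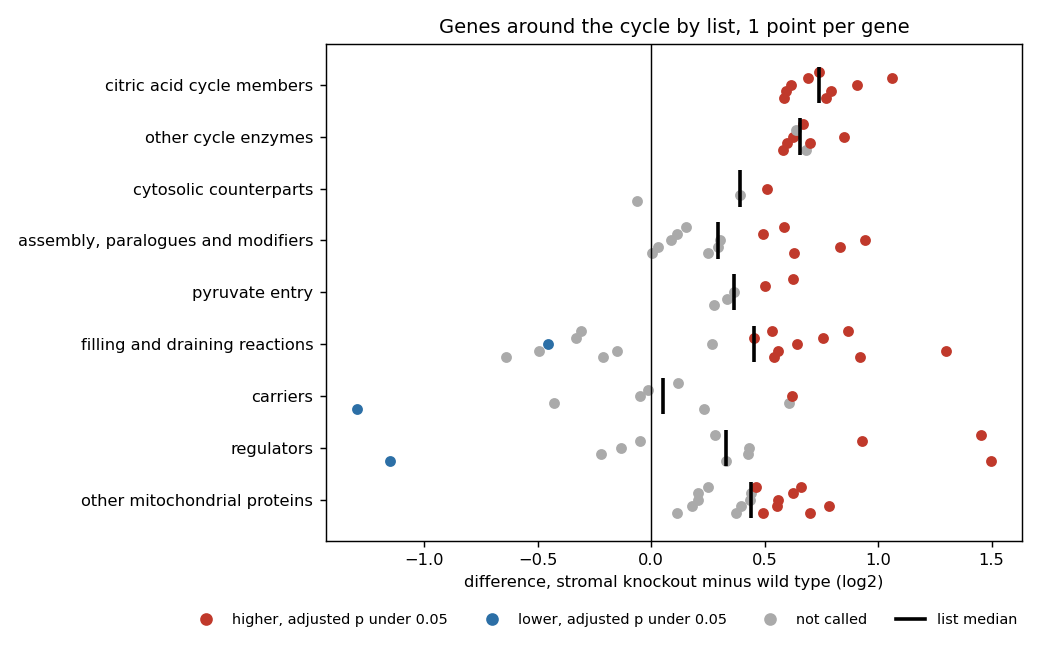
Difference between stromal knockout and wild type (horizontal axis, log2, knockout minus wild type) for every measured gene of the 9 members and of 8 lists around the cycle, 1 point per gene, red where higher and blue where lower at an adjusted p under 0.05, with a black line at the list median. All 9 members and all 8 other cycle enzymes lie above 0, and the carriers spread on both sides.

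Markers of several cell types in the gland moved with the genotype. Thermogenic adipocyte markers had means over 11 genes of 7.25 to 7.75 in knockout arrays and 5.34 to 6.69 in wild-type arrays. Of these genes 6 rose and 0 fell, beside 5.05% of all genes called higher (0 lower at an unadjusted limma p under 0.05). The difference was positive for 8 of the 11, and negative without passing for Elovl3 (-0.67 ± 0.35; adjusted p = 0.278), Dio2 (-0.65 ± 0.30; adjusted p = 0.220) and Zic1. The summed linear signal of the list was 4825 to 6910 in the knockout and 709 to 2195 in wild type. Zic1, a marker of classical brown fat, lay under 2.68 in both groups (-0.02 ± 0.13). Ucp1, the uncoupling protein, read 9.23, 9.62 and 11.08 in knockout arrays, against 4.88, 8.80 and 7.12 in wild-type arrays (3.04 ± 0.91; adjusted p = 0.0709). Without wild type 1 the Ucp1 difference was 2.02 (adjusted p = 0.134). It passed without wild type 2 alone (3.97; adjusted p = 0.0277) and reached an adjusted p of 0.173 without knockout 3. Wild type 1 was the lowest wild-type array for this list, as it was for the cycle members, and wild type 2 was the highest for both means. White adipocyte markers had means of 11.32 to 11.43 in knockout arrays and 11.10 to 11.15 in wild-type arrays, with 2 of 9 genes called higher. Their part in the rise of the cycle genes was not tested.

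Other cell types were read the same way. Of 11 luminal epithelial markers 11 fell, with means of 5.02 to 5.32 in knockout arrays and 7.48 to 7.65 in wild-type arrays. Their summed signal was 449 to 580 in the knockout and 2536 to 2938 in wild type. Of 8 fibroblast markers 4 fell (means 9.85 to 9.97 in the knockout, 10.52 to 10.77 in wild type). So did 6 of 8 basal epithelial, 4 of 6 macrophage and 4 of 5 proliferation markers, beside 7.2% of all genes called lower. Of 5 lymphocyte markers 1 fell, and 2 lay under 2.68 in both groups. Lymphocyte means overlapped, at 3.17 to 3.54 in knockout arrays and 3.14 to 3.68 in wild-type arrays. Of 4 endothelial markers 1 rose, beside 5.05% of all genes called higher. Of 18 skeletal muscle markers limma called 0 (3 of them lower at an unadjusted p under 0.05). Their means were 3.23 to 3.33 in knockout arrays and 3.33 to 5.46 in wild-type arrays, and their summed signal was 245 to 248 in the knockout and 248 to 1475 in wild type. The part of these cell types in the cycle values was not tested.

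**Figure D5:**
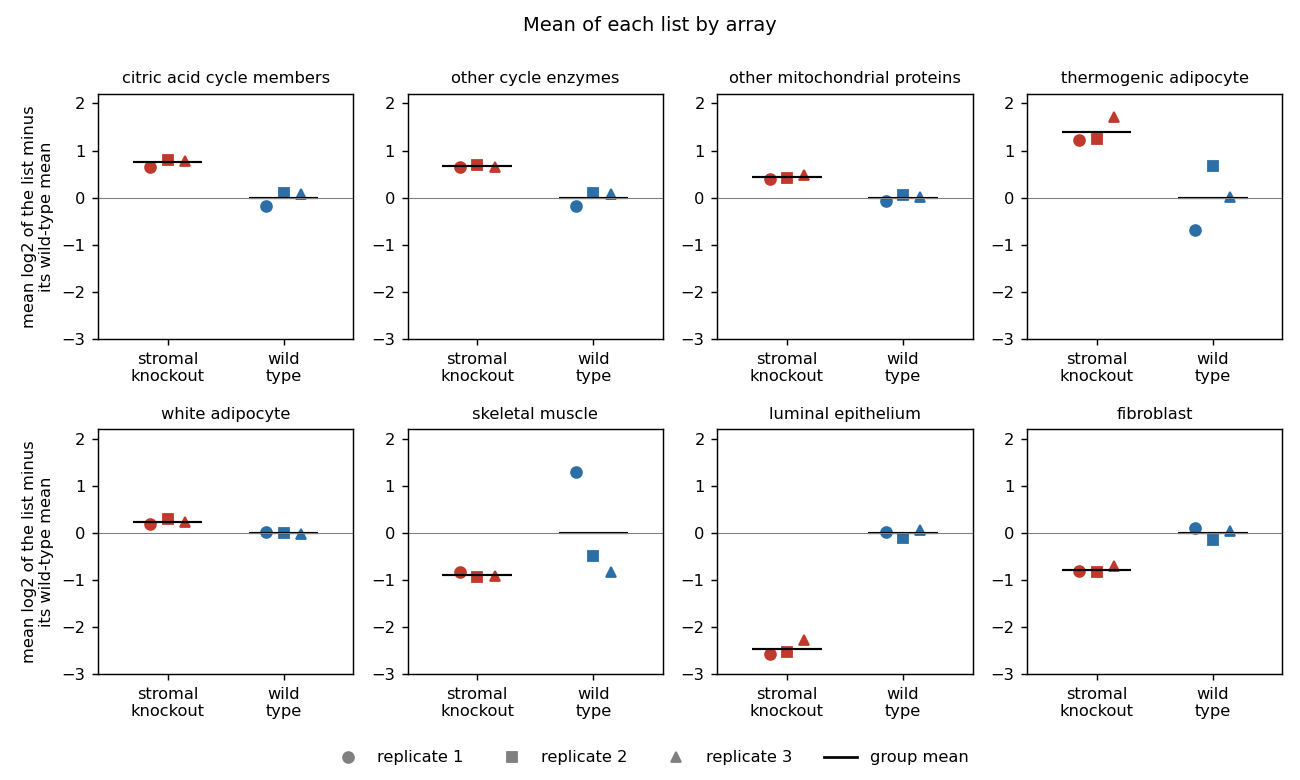
Mean log2 signal of each gene list minus its wild-type mean (vertical axis) by array, for stromal knockout (red, left) and wild type (blue, right), with marker shape giving the replicate number and a line at the group mean. Cycle members and thermogenic markers are higher in the knockout, luminal and fibroblast markers are lower, and wild type 1 is high for skeletal muscle.

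Over the 6 arrays, the genes outside the set whose profile was most like the mean of the 9 members were Vps35, a retromer subunit, Atp5md, a small ATP synthase subunit, the outer membrane channel Vdac1, the complex I subunit Ndufa3 and the monoamine oxidase Maob. Their Pearson r was 0.9971 to 0.9997, given as a description because the arrays fall into 2 groups. The members' own r with that mean was 0.959 to 0.996, and 435 other genes reached at least the lowest of these. Likeness of profile did not track size, since Vps35 differed by 0.22 ± 0.10 (adjusted p = 0.230), Vdac1 by 0.21 ± 0.10 (0.263), Ndufa3 by 0.31 ± 0.11 (0.108), Atp5md by 0.52 ± 0.11 (0.0230) and Maob by 0.55 ± 0.12 (0.0271).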

How the data were processed

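The authors deposited 1 log2 value per probe set and array for 41345 probe sets on 6 arrays; the submitters' processing notes name RMA and limma without versions, and the labels' protocols give 400 ng of total RNA per array. The deposited table does not write the base of its logarithm, which was taken as 2. The platform annotation gave 1 symbol to 23521 probe sets, and the one with the highest mean over the 6 arrays stood for each of 22180 genes. Groups were compared over all genes with lmFit and eBayes of limma 3.58.1 (R 4.3.3), with Benjamini-Hochberg adjustment and a threshold of 0.05. Standard errors are those of that fit, except for the within-array ratios, where they come from the spread of the ratios in each group. The number of arrays limits the precision, and p-values measure only the spread between these samples. The fit was also run on simulated arrays in which genes vary independently, which does not test the calls made here.

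The members and lists were chosen with earlier results of these data known. Named genes were the 9 members, Mmp14, all measured other cycle enzymes and cytosolic counterparts, up to 6 called genes per other list by size, the 5 genes most like the members, and Pdk4, Ucp1 and Ppargc1a; genes in the text outside this rule (Esrra, Nrf1, Slc25a1, Got1, Ogdhl, Csl, Zic1, Elovl3, Dio2 and those of the closing section) were added after their values were seen. Correlations of deviations between arrays of the same replicate number were -0.05 to -0.03, and the main fit did not pair them. Among the members, however, replicate 1 was lowest for 7 in the knockout and for 9 in wild type. Each result was repeated after dropping genes under the 33rd percentile, with a variance trend (plain or robust), with array weights, after a further quantile normalization or median centring, with probe sets averaged or all kept, with a replicate block, at a threshold of 0.1, and without each array in turn.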

Additional observations from a re-analysis of the deposited data

How the results depend on the processing

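All 9 members kept a positive difference under every alternative run. 7 of the 9 passed with repeated quantile normalization and 7 with the replicate number as a block, Idh3b and Idh3g dropping out each time, and 6 to 9 passed without 1 array. Their median difference was 0.61 with repeated quantile normalization, 0.92 with arrays centred on their medians and 0.68 to 0.79 without 1 array. Centring moved the median difference of all genes to 0.22, against 0.03 as reported, and gave 4333 called genes, 3155 higher and 1178 lower, in place of 2717, 1121 and 1596. At an adjusted p under 0.1, 4090 genes were called, 1857 of them higher. With 1 array fewer, 1490 to 2304 genes were called, 494 to 877 higher and 969 to 1427 lower. The replicate block gave 689 higher calls and 22 of the 82 genes in the pathway lists in place of 38; 14 to 27 of these passed without 1 array. Of the other cycle enzymes, 2 to 7 passed without 1 array. The difference of Idh1 turned to +0.12 with median centring. Idh3a over Idh3b was 0.45 with repeated quantile normalization, and without 1 array Idh3b over Idh3g ranged over -0.01 to 0.04 and Ogdh over Dlst over -0.09 to 0.03. Of 34 called genes outside the set that were followed singly through these repeats, Mmp14 included, 16 passed without each array in turn. Got1, Atp5md and Maob were not among these 34. The causes of these shifts were not tested. Fits with fewer arrays also have fewer degrees of freedom, and the part of that was not separated.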

Other observations

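The malate-aspartate shuttle, which carries reducing power from cytosolic NADH into the matrix, runs through genes of several of the lists above, and was assembled after their values had been seen, so it carries no test as a group. Of its 7 genes read here, 3 rose and 2 fell, beside 5.05% of all genes called higher and 7.2% called lower. Mdh2 (0.62 ± 0.11), Mdh1 (0.51 ± 0.12) and the malate exchanger Slc25a11 (0.62 ± 0.12) rose, the call of Mdh1 being lost without any 1 array other than wild type 2. The aspartate exchanger Slc25a13 (-1.29 ± 0.13) and Got1 (-0.46 ± 0.12) fell, the call of Got1 being lost without knockout 2 or any 1 wild-type array. Got2 (-0.49 ± 0.14; adjusted p = 0.0620) and Slc25a12 (-0.43 ± 0.15; adjusted p = 0.119) had negative differences that missed the threshold with knockout arrays below all wild-type arrays. Slc25a13 had group means of 3.96 in the knockout and 5.25 in wild type. Acly, which splits exported citrate in the cytosol for lipid synthesis, differed by -0.64 ± 0.19 (adjusted p = 0.0717), again with no overlap between groups.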
